A study of Salmo salar with 13 samples.

Results

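Seawater transfer was examined in Atlantic salmon that had been prepared for the sea by constant light. The tissue was the saccus vasculosus (SV), and 6 of the 13 RNA-seq libraries of the series bear on this comparison. They were chosen by their labels, 2 libraries of fish kept in fresh water (SPLL FW) and 4 of fish moved to seawater for 24 h (SPLL SW). Transcripts were compared where the median over the 13 libraries reached 0.77 CPM (reads scaled to a fixed library size), which kept 46383 of the 146780 transcripts in the files.

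All fish were of the commercial Aquagen strain and were juvenile parr, raised in fresh water under continuous light before the treatments. SPLL fish had 8 weeks of short photoperiod (SP) followed by 8 weeks of constant light (LL), the light sequence that starts smoltification. The 7 remaining libraries came from fish held on short photoperiod for 16 weeks (SP-hold), with 4 libraries in FW and 3 in SW, and they served to estimate the spread between libraries and to compare the responses. The SW tank was under constant light, so the light stayed the same for SPLL fish and changed for SP-hold fish. Transfer also meant a new tank and handling, and the effects of salinity, tank and handling cannot be told apart here. By the study's methods each group came from duplicate tanks, but the labels do not tie libraries to tanks, so p-values measure the spread between these libraries. SPLL FW is the smallest group because the study left out other libraries with few reads.

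The SV is a vascular sac on the floor of the fish hypothalamus. Its coronet cells carry swollen, ciliated globules that reach into the cerebrospinal fluid, and supporting cells and blood sinuses surround them. In masu salmon the SV has been proposed as a sensor of day length. Smoltification is the change by which a freshwater parr becomes a fish that can live in the sea. Coronet cell transcripts were present in every SPLL library: transcripts for ependymins, secreted proteins of the cerebrospinal fluid and matrix, and for parvalbumin, the calcium buffer that marks coronet cells. The list of coronet cell and SV markers held between 7.57 and 11.5% of the TPM total (abundance scaled for transcript length) in these libraries.

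SPLL libraries held between 22239063 and 24840759 assigned reads. SPLL SW replicate 3 stood apart from the other SPLL libraries. Only 54196 transcripts had reads in it, where the other 5 SPLL libraries had 62912 to 69054, and its rank correlation with them across transcripts reached at most 0.7459, where the other libraries reached 0.8309 to 0.8555 with their closest library. Counts are therefore given with it and without it, and list members that passed in edgeR once it was left out are named.

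Between SPLL SW and SPLL FW 125 transcripts differed at an edgeR FDR under 0.05, or 0.269% of those tested. Of these, 88 rose (0.190%) and 37 fell (0.0798%). The libraries of SPLL FW and SPLL SW did not overlap in CPM for any of the 125, which was also so for 22.5% of all tested transcripts (10.6% higher and 11.9% lower in SW). At an unadjusted p under 0.05, 4870 transcripts differed (10.5%), with 6.17% higher and 4.33% lower. DESeq2 called 2287 (4.93%), with 3.51% higher and 1.42% lower, all 125 among them. Without SPLL SW replicate 3 the count was 511 (1.10%), with 0.718% of tested transcripts higher and 0.384% lower, and again held all 125. In a fit to the 6 SPLL libraries alone 31 transcripts passed (0.0668%), of which 30 had 0 reads in all libraries of SPLL FW or of SPLL SW. Of the 31, 2 were among the 125, so the calls rest on a spread estimated with the SP-hold libraries. 

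Of the 125 transcripts, 41 carried a gene name, 29 that rose and 12 that fell. Names came from the study's tables, which list transcripts the study selected on these samples, and 38 of the 41 belonged to its response clusters. Counts, medians and shares without overlap over named genes and gene lists are for that reason not independent evidence of a direction. This also holds where they stand beside values over all tested transcripts. No named transcript changed its direction when any library was left out, and 10 kept their call without any 1 library: pcmtd2a, hnrnpa1a, pwp1, SCML2, gas8, Vegfb, egfl7, plak, Dact3 and tppp3. The other 31 lost it without at least 1 library.

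**Figure D1:**
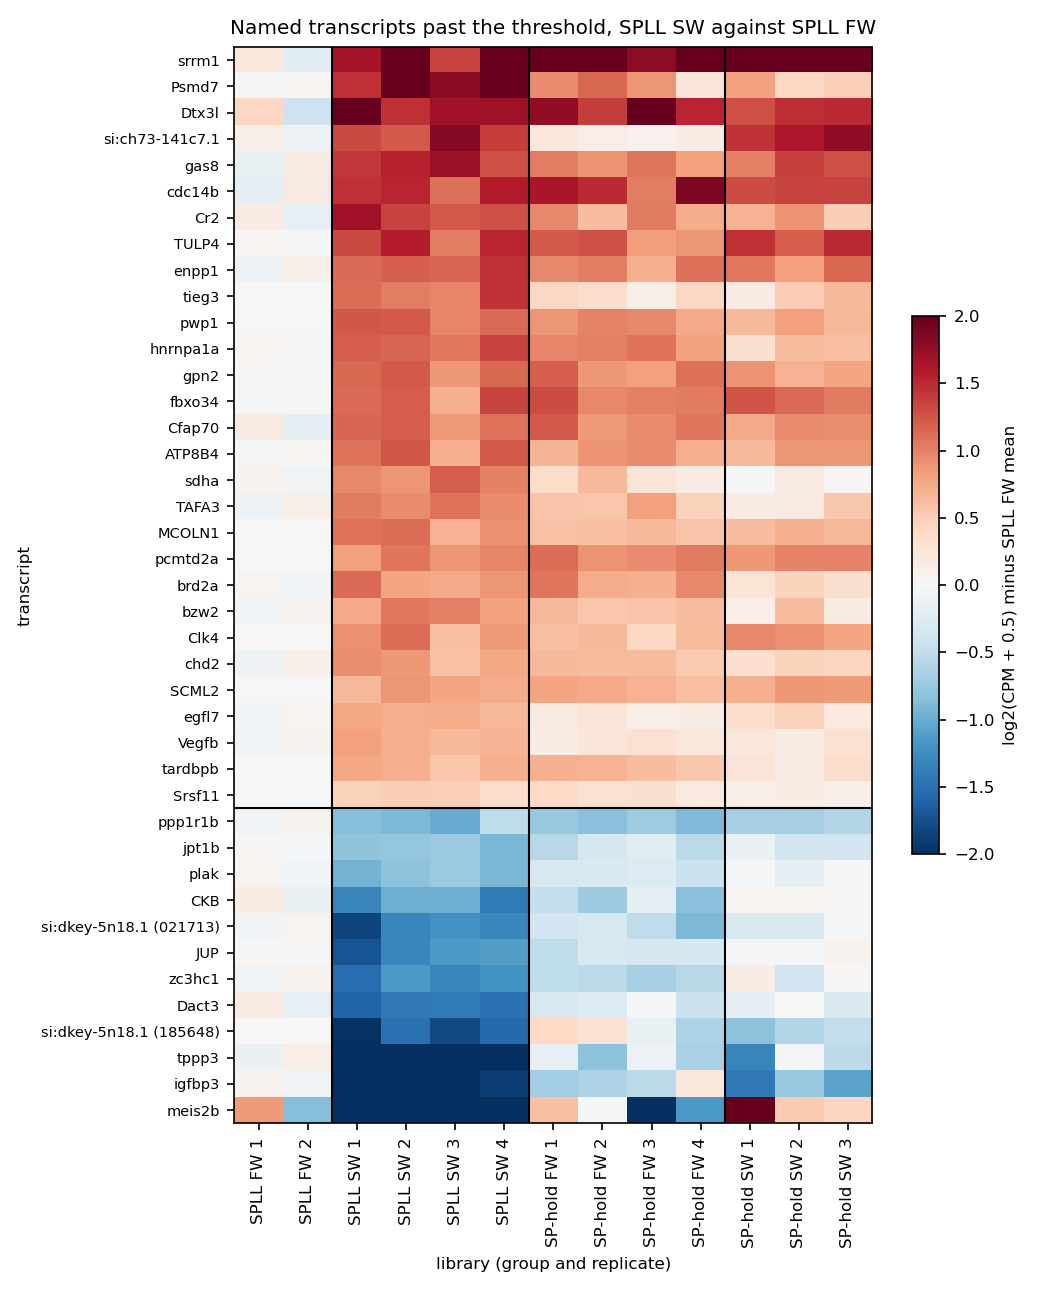
Heat map of the 41 named transcripts that passed the threshold, with log2(CPM + 0.5) in each of the 13 libraries as the difference from the mean of the SPLL FW libraries. The colour scale is limited to 2 log2 units in either direction, and the 4 SPLL SW libraries lie on the same side of both SPLL FW libraries in every line.

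Of the 29 named rises among 1273 named transcripts tested, 5 were on the list of 74 splicing and RNA-binding transcripts. Another 3 were on the list of 26 chromatin regulators. The medians of the log2 fold change on these lists were −0.11 and −0.05. hnrnpa1a, a nuclear protein that binds pre-mRNA and guides splice site choice (ENSSSAT00000210623, Ssal_v3.1 chromosome 15, 92946882 to 92951819), measured 63.3 and 60.1 CPM in SPLL FW and 144, 139, 128 and 158 CPM in SPLL SW. All 4 SW libraries stood above both FW libraries, and the log2 fold change was 1.20 ± 0.13 (SE, FDR = 0.00645). tardbpb encodes a TDP-43 protein, which binds RNA in the nucleus and controls splicing. It measured 72.9 and 72.5 CPM in FW and 124, 120, 107 and 121 CPM in SW, a log2 fold change of 0.70 ± 0.09 (FDR = 0.017). Its call was lost without either SPLL FW library, with a highest FDR of 0.0667.

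The other members of the splicing and RNA-binding list that rose were Clk4, srrm1 and Srsf11. Clk4, a kinase that phosphorylates splicing factors, rose from 29.9 and 29.8 CPM to between 45.7 and 65.2 CPM (log2 fold change 0.89 ± 0.13, FDR = 0.0281). The call was lost without any of 5 libraries (highest FDR 0.122). srrm1, a component of splicing complexes, rose from 2.3 and 1.57 CPM to between 5.65 and 12.2 CPM (2.15 ± 0.34, FDR = 0.0347, lost without any of 9 libraries, highest FDR 0.191). Srsf11, a serine and arginine rich splicing factor, had the smallest change of the named set, from 64.2 and 64.3 CPM to between 82.6 and 90.5 CPM (0.45 ± 0.08, FDR = 0.0488, lost without any of 11 libraries, highest FDR 0.197).

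On the list of 74 splicing and RNA-binding transcripts, members moved in both directions. In edgeR 5 rose and 1 fell (0.190% and 0.0798% of all tested), and DESeq2 called 7 higher and 7 lower (3.51% and 1.42%). At an unadjusted p under 0.05 there were 9 higher and 18 lower (6.17% and 4.33% of all tested). The median log2 fold change was −0.11 against 0.01 over all tested transcripts. The 1 edgeR fall was zc3hc1, from 5.96 and 6.69 CPM to between 1.86 and 2.56 CPM (−1.46 ± 0.24, FDR = 0.0384, lost without any of 10 libraries, highest FDR 0.16). zc3hc1 encodes a zinc finger protein of the nuclear envelope that is known as a nuclear interaction partner of ALK. This description names neither splicing nor RNA binding. Without SPLL SW replicate 3 the list had 5 members that rose and 6 that fell.

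Chromatin regulators were represented by 3 transcripts that rose, of 26 on their list (0.190% of all tested rose). chd2, a chromatin remodelling ATPase, measured 49.8 and 57.4 CPM in FW and 102, 98, 80.5 and 91.7 CPM in SW (0.80 ± 0.11, FDR = 0.017, and 0.073 without SPLL FW replicate 1). SCML2, a Polycomb group protein, rose from 28.6 and 28 CPM to between 45 and 52.5 CPM (0.78 ± 0.09, FDR = 0.00987). brd2a, which reads acetylated histones, rose from 15.7 and 14.4 CPM to between 25.7 and 33.7 CPM (0.92 ± 0.15, FDR = 0.0396, lost without any of 9 libraries, highest FDR 0.198). The list median was −0.05, and 15 of the 26 members had a negative log2 fold change.

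The gene with the lowest p of all named transcripts was pcmtd2a, a relative of the enzyme that repairs damaged aspartyl residues in proteins. It measured 66.7 and 65.3 CPM in FW and 117, 139, 122 and 131 CPM in SW (0.95 ± 0.10, FDR = 0.00645). pwp1, a WD-repeat protein of ribosome assembly, rose from 7.86 and 7.78 CPM to between 15.9 and 19.2 CPM (1.20 ± 0.13, FDR = 0.00714). Of 162 ribosomal protein transcripts, edgeR called 0 and DESeq2 called 5, and 6 had an unadjusted p under 0.05. Their median log2 fold change was −0.08 with all libraries and −0.49 without SPLL SW replicate 3, when 6 members fell.

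Vascular and growth factor transcripts moved in both directions. Vegfb, a ligand of the VEGF receptor family (ENSSSAT00000229343, chromosome 5, 18166604 to 18192373), measured 36.3 and 40.1 CPM in FW and 67.6, 63.2, 59.8 and 61.7 CPM in SW. The SW libraries lay close to each other and the log2 fold change was 0.72 ± 0.09 (FDR = 0.0103). egfl7 encodes a matrix protein that endothelial cells secrete. It measured 40.9 and 43.9 CPM in FW and 72.7, 70.6, 71.6 and 67.2 CPM in SW (0.73 ± 0.09, FDR = 0.0126). The second endothelial marker measured, stab2, a scavenger receptor of sinusoidal endothelium, measured 99.4 and 107 CPM in FW and between 123 and 150 CPM in SW, a log2 fold change of 0.37 ± 0.09 that did not pass (FDR = 0.152). DESeq2 called both egfl7 and stab2 higher (3.51% of all tested), and both had an unadjusted p under 0.05 (6.17% of all tested were higher). In bulk tissue, more cells of a type and more RNA per cell cannot be told apart.

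On the other side were a binding protein and a pathway inhibitor. igfbp3, which binds insulin-like growth factors in the extracellular space, measured 9.12 and 8.26 CPM in FW and 1.41, 0.867, 0.968 and 1.97 CPM in SW. This was a fall by 2.73 on the log2 scale (SE 0.39, FDR = 0.0224, and 0.0603 without SPLL SW replicate 1). Dact3, an inhibitor of Wnt signalling, fell from 10.2 and 7.97 CPM to between 2.64 and 3.07 CPM (−1.64 ± 0.20, FDR = 0.00962). Of the 14 growth factors, receptors and binding proteins, 2 rose and 2 fell (0.190% and 0.0798% of all tested). A negative log2 fold change was found for 11 (22973 of all 46383 tested), with a median of −0.49. frzb, a secreted Wnt inhibitor, stood at 196 and 213 CPM in FW and 120 to 151 CPM in SW without passing (FDR = 0.145).

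**Figure D2:**
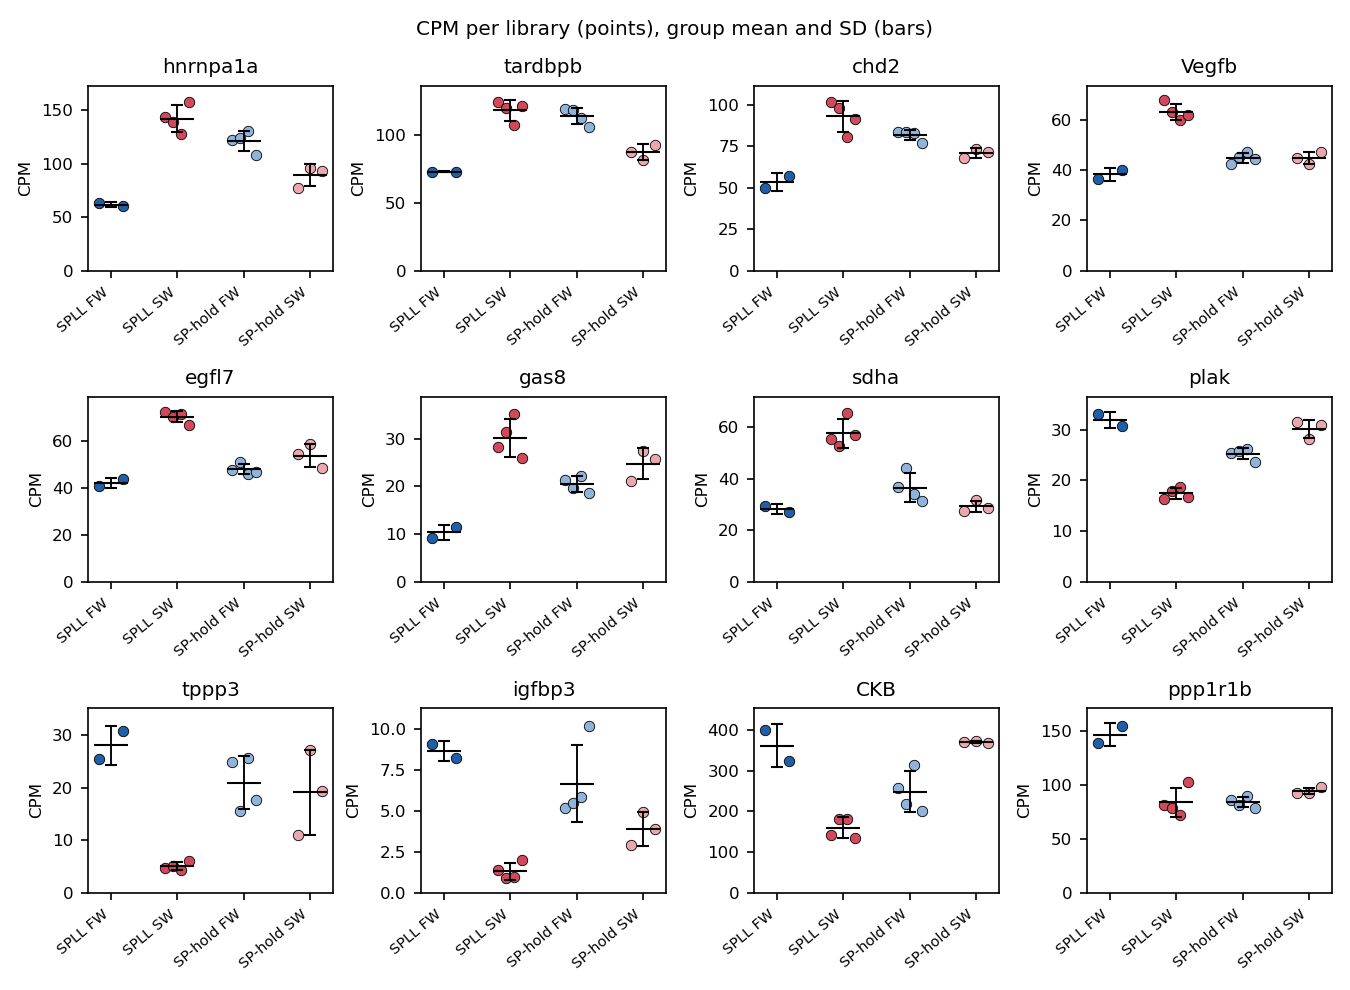
CPM of 12 named transcripts in each of the 13 libraries, by group, where each point is a library and the bar and whiskers give the group mean and SD. The SPLL SW points do not overlap the SPLL FW points in any of the 12 panels, as with igfbp3, whose SW points lie between 0.867 and 1.97 CPM and whose FW points are 8.26 and 9.12 CPM.

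Cilium transcripts moved in both directions. tppp3, a protein that bundles microtubules (ENSSSAT00000207088, chromosome 26, 51703245 to 51729239), measured 25.4 and 30.7 CPM in FW and 4.68, 5.02, 4.3 and 6.09 CPM in SW. The fall was 5.58-fold (log2 fold change −2.48 ± 0.31, FDR = 0.0136), and tppp3 also passed when the 6 SPLL libraries were fitted alone (FDR = 0.0486). gas8, a subunit of the complex that regulates dynein in motile cilia, went the other way, from 9.22 and 11.5 CPM to 28.2, 31.3, 35.2 and 26 CPM (1.54 ± 0.17, FDR = 0.00665). Cfap70, an axonemal protein of cilia, rose from 12.3 and 9.49 CPM to between 20 and 25.6 CPM (1.11 ± 0.16, FDR = 0.0235, lost without any of 3 libraries, highest FDR 0.126).

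TULP4, a member of the Tubby-like family, measured 49.3 and 47.1 CPM in FW and between 98 and 144 CPM in SW (1.38 ± 0.19, FDR = 0.0178, and up to 0.0849 without an SPLL FW library). In all, 3 of the 14 cilium members rose and 1 fell. Among the 1273 named transcripts tested 29 rose and 12 fell (0.190% and 0.0798% of all tested). Other members of the list kept close levels, as with ift20, an intraflagellar transport protein, at 128 and 157 CPM in FW and 129 to 165 CPM in SW (log2 fold change 0.01, FDR = 1). The list median was 0.11.

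Among synaptic transcripts, 3 of 9 fell, against 12 of the 1273 named transcripts tested and 0.0798% of all tested. The C1q-like protein si:dkey-5n18.1, whose mouse match C1ql1 is a secreted organiser of synapses, was measured as 2 transcripts. ENSSSAT00000021713 fell from 128 and 138 CPM to 36.7, 53.4, 57.3 and 53.5 CPM (−1.40 ± 0.19, FDR = 0.017, and 0.055 without SPLL FW replicate 2). ENSSSAT00000185648 fell from 87.2 and 89.1 CPM to 22, 30.9, 25 and 29.8 CPM (−1.71 ± 0.24, FDR = 0.0201). Leaving out SPLL FW replicate 2 or SPLL SW replicate 1 ended the second call, with a highest FDR of 0.0611. As near-identical copies may share reads in salmon, the split between these transcripts is uncertain.

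ppp1r1b encodes DARPP-32, a phosphatase inhibitor in cells that receive dopamine. It measured 139 and 154 CPM in FW and 81.2, 78.1, 72.2 and 103 CPM in SW (−0.81 ± 0.13, FDR = 0.0308, lost without any of 6 libraries, highest FDR 0.153). Its share of TPM was 0.00966 and 0.00961% in FW and 0.00598, 0.00751, 0.00377 and 0.00964% in SW. On that scale SPLL SW replicate 4 lay between the FW libraries. None of the 9 synaptic members rose, 7 had non-overlapping lower CPM in SW (11.9% of all tested transcripts did), and the median log2 fold change was −0.81. Vamp2, a vesicle fusion protein, had overlapping levels, at 129 and 143 CPM in FW and 129 to 148 CPM in SW. Among neuropeptides and granule proteins, TAFA3, a secreted chemokine-like peptide of the brain, rose from 26 and 30.6 CPM to between 54.6 and 60.7 CPM (1.02 ± 0.15, FDR = 0.0224, lost without either of 2 libraries, highest FDR 0.101).

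Cell junction transcripts fell as well, in 2 of 8 members, against 12 of the 1273 named transcripts tested and 0.0798% of all tested. plak and JUP are both named as junction plakoglobin, which links cadherins to the cytoskeleton at desmosomes and adherens junctions. plak (ENSSSAT00000090532, chromosome 2, 56686919 to 56717414) measured 33.1 and 30.8 CPM in FW and 16.3, 17.9, 18.8 and 16.8 CPM in SW (−0.87 ± 0.09, FDR = 0.00645). JUP measured 9.57 and 9.35 CPM in FW and 2.5, 3.54, 3.98 and 4.11 CPM in SW (−1.42 ± 0.21, FDR = 0.0235, and up to 0.0714 without an SPLL FW library).

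Connexins, the proteins of gap junctions, were lower in SW but did not pass with all libraries. gja1b, a connexin 43 gene, had a transcript at 714 and 668 CPM in FW and 320 to 466 CPM in SW (−0.86 ± 0.18, FDR = 0.0942). gjc4a.1 measured 206 and 193 CPM in FW and 87.7, 87.3, 120 and 121 CPM in SW (−0.94 ± 0.17), with an FDR of 0.0633, or 0.03 without SPLL SW replicate 3. Of the 8 junction members, 7 had SW libraries below both FW libraries in CPM and 1, the claudin CLDN20, had them above, against 11.9% and 10.6% of all tested transcripts. Together the junction members held 0.0666 and 0.0573% of TPM in FW and 0.0292 to 0.0605% in SW, where the groups overlapped. The list median was −0.90, and DESeq2 called 7 members lower and 1 higher.

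Energy and transport transcripts were few among the calls. CKB, the brain creatine kinase that buffers ATP, measured 361 ± 53 CPM in FW (SD, n = 2) and 143, 182, 182 and 134 CPM in SW, below both FW libraries (−1.17 ± 0.18, FDR = 0.0323, lost without any of 6 libraries, highest FDR 0.133). sdha, the catalytic subunit of succinate dehydrogenase, rose from 29.5 and 26.9 CPM to between 52.5 and 65.7 CPM (1.03 ± 0.15, FDR = 0.0224, and up to 0.122 without an SPLL FW library). It was the only one of 59 respiratory chain and ATP synthase members to pass with all libraries, and their median was −0.01. Without SPLL SW replicate 3 the median was −0.36, and ndufb4, a subunit of complex I, also passed, with a log2 fold change of −0.75 ± 0.11 (FDR = 0.0174).

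MCOLN1, a cation channel of lysosomes, rose from 10.3 and 10.1 CPM to between 16.8 and 22.7 CPM (1.00 ± 0.14, FDR = 0.0172, and up to 0.0771 without an SPLL FW library). ATP8B4, named as a flippase that moves phospholipids across membranes, rose from 26.3 and 27.9 CPM to between 45.3 and 64.7 CPM (2.14-fold, FDR = 0.02, and up to 0.0774 without an SPLL FW library). These were the 2 of 22 ion pumps, channels and solute carriers that passed (0.190% of all tested rose). Transcripts of the sodium pump beta subunit family did not, as with ATP1B4 at 307 and 388 CPM in FW and 268 to 343 CPM in SW (FDR = 0.568). The vacuolar proton pump, which acidifies vesicles, had no call among 11 members in edgeR, 1 at an unadjusted p under 0.05 and none in DESeq2.

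Protein turnover added 3 transcripts that rose. fbxo34, an F-box protein of ubiquitin ligases, rose from 39.2 and 40.2 CPM to between 65.1 and 102 CPM (1.13 ± 0.17, FDR = 0.0284, lost without any of 6 libraries, highest FDR 0.117). Dtx3l, a ubiquitin ligase of DNA damage and interferon responses, rose from 25.2 and 13.9 CPM to between 52.5 and 81.6 CPM (1.72 ± 0.28, FDR = 0.0365, lost without any of 9 libraries, highest FDR 0.143). Psmd7, a lid subunit of the proteasome, rose from 1.95 and 2.09 CPM to between 6.46 and 9.79 CPM (2.08 ± 0.35, FDR = 0.042, lost without any of 10 libraries, highest FDR 0.174). Psmd7 was the only one of 26 proteasome members to pass, and their median was 0.06. Of 16 ubiquitin ligase and conjugation members, 2 rose and 0 fell in edgeR (0.190% and 0.0798% of all tested). A negative log2 fold change was found for 11 of the 16, with a median of −0.08. At an unadjusted p under 0.05, 2 were higher and 3 lower, and DESeq2 called 2 higher and 2 lower.

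The remaining named calls belong to separate functions. Cr2, matched to a mouse complement receptor, rose with a log2 fold change of 1.43 ± 0.20 (FDR = 0.0185), gpn2, a GTPase of RNA polymerase assembly, with 1.13 ± 0.14 (FDR = 0.0135), and cdc14b, a cell cycle phosphatase, with 1.54 ± 0.26 (FDR = 0.0461). enpp1, an enzyme that makes pyrophosphate outside cells, rose with 1.32 ± 0.20 (FDR = 0.0242), bzw2, a regulator of translation initiation, with 0.91 ± 0.15 (FDR = 0.0418), and si:ch73-141c7.1 with 1.58 ± 0.23 (FDR = 0.0224). jpt1b fell with −0.82 ± 0.12 (FDR = 0.0247). Each of these 7 lost its call without at least 1 library, with highest FDR values of 0.0966 for Cr2, 0.0579 for gpn2, 0.188 for cdc14b, 0.106 for enpp1, 0.171 for bzw2, 0.12 for si:ch73-141c7.1 and 0.085 for jpt1b.

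meis2b, a homeobox transcription factor, measured 60.5 and 18.4 CPM in FW and 0.227, 0.717, 0 and 0.494 CPM in SW. It was the largest fall of a named transcript (−6.70 ± 1.05, FDR = 0.0323), and its FW libraries lay far apart. The call was lost without any of 7 libraries, with a highest FDR of 0.113.

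Of 12 clock members, 10 had a positive log2 fold change (23410 of all 46383 tested did), but none passed in edgeR. CRY1, a repressor in the circadian feedback loop, measured 19.2 and 23.5 CPM in FW and 50.7, 47.6, 46.4 and 57.6 CPM in SW (1.24 ± 0.25, FDR = 0.0871). tefb, a transcription factor of clock output, had a transcript at 3.96 and 5.27 CPM in FW and 8.98 to 12.1 CPM in SW (1.19 ± 0.26, FDR = 0.112). nr1d2a, a REV-ERB repressor, had a transcript at 19.4 and 24.4 CPM in FW and 37.7 to 44.8 CPM in SW (0.88 ± 0.19, FDR = 0.105). Beside the 0 edgeR calls, 7 members had an unadjusted p under 0.05, all higher (6.17% of all tested). DESeq2 called 6, all higher (3.51% of all tested). Clock members held 0.0265 and 0.0255% of TPM in FW and 0.0335, 0.0469, 0.0207 and 0.0449% in SW, where replicate 3 lay below both FW libraries. The list median was 0.74. CRY1 had a log2 fold change of 1.33 in SP-hold fish, where the light changed as well (FDR = 0.0573), and the difference between the responses was −0.08 (FDR = 0.976).

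Targets of cortisol, the hormone that salmon release in seawater and under stress, had 10 of 12 positive log2 fold changes (23410 of all 46383 tested). tieg3, a Krüppel-like factor, was the only member to pass, from 7.16 and 7.21 CPM to 16.2, 15.1, 14.7 and 20.4 CPM (1.21 ± 0.20, FDR = 0.0418, lost without any of 10 libraries, highest FDR 0.174). klf9, a transcription factor induced by glucocorticoids, measured 4.31 and 6.22 CPM in FW and 9.87, 11.1, 14.9 and 10.4 CPM in SW (1.13 ± 0.27, FDR = 0.141). TSC22D3, the glucocorticoid-induced leucine zipper, measured 63.3 and 78.2 CPM in FW and 106 to 133 CPM in SW (0.73 ± 0.20, FDR = 0.176). The list median was 0.81, with 7 members higher at an unadjusted p under 0.05 and 1 lower (6.17% and 4.33% of all tested). Transcripts named fkbp5, a co-chaperone of the glucocorticoid receptor, numbered 4, and 2 of them, from different genes, did not pass in edgeR with all libraries but did without SPLL SW replicate 3. ENSSSAT00000241265 had an FDR of 0.177 with it and 0.0208 without it, and ENSSSAT00000242092 had 0.101 and 0.0384. DESeq2 called both with all libraries (FDR = 0.00829 and 1.1e-05).

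**Figure D3:**
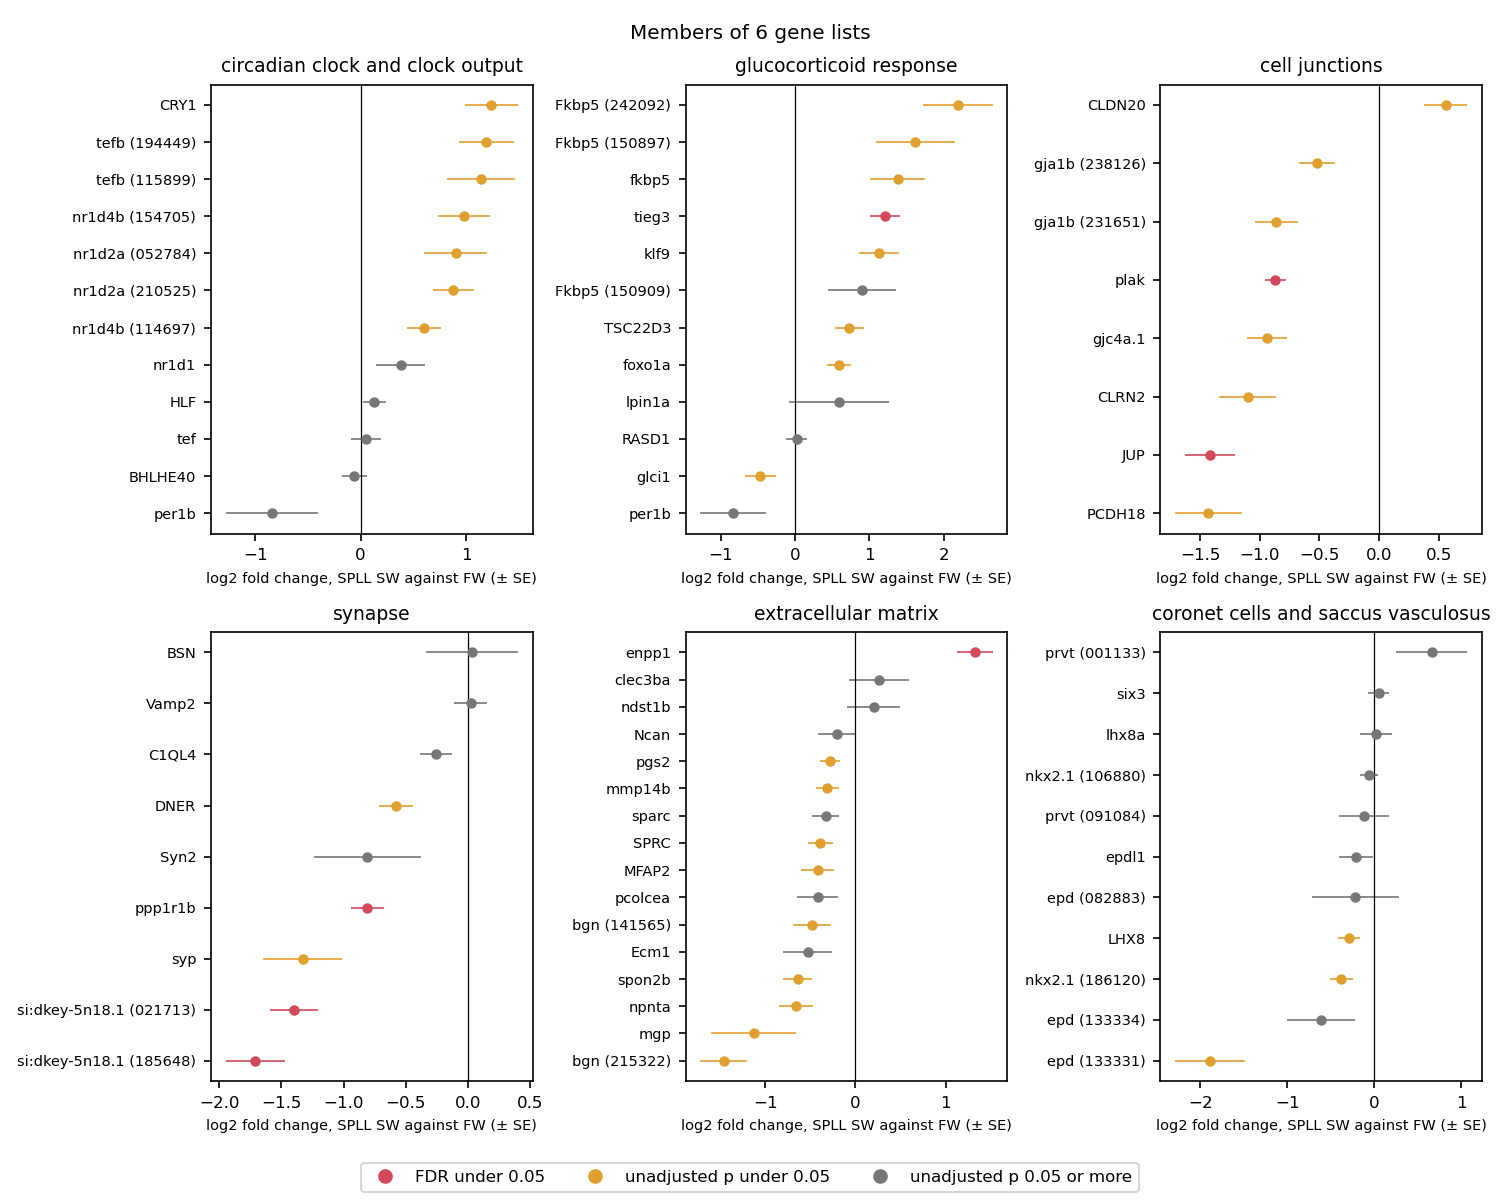
Log2 fold changes of SPLL SW over SPLL FW with their SE for each member of 6 gene lists: clock, glucocorticoid response, cell junctions, synapse, extracellular matrix, and coronet cell and SV markers. The medians are 0.74, 0.81, −0.90, −0.81, −0.40 and −0.21, against 0.01 over all tested transcripts and −0.06 over the named ones. List members were named from tables that the study selected on these samples, so the medians are not independent evidence of a direction.

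Extracellular matrix transcripts were mostly lower in SW without passing. Of 16 members, enpp1 rose, none fell, 13 had a negative log2 fold change (22973 of all 46383 tested did) and the median was −0.40. bgn, the proteoglycan biglycan, had a transcript at 20.3 and 13 CPM in FW and 4.87 to 7.32 CPM in SW (ENSSSAT00000215322, −1.46 ± 0.26, FDR = 0.0576, or 0.031 without SPLL SW replicate 3). mgp, an inhibitor of calcification, measured 251 and 175 CPM in FW and 39.6, 148, 139 and 62.6 CPM in SW (−1.13 ± 0.47, FDR = 0.43).

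Ependymins were the most abundant of the transcripts followed here, and none of the 4 passed in edgeR. The transcript with the highest level measured 75523 and 99404 CPM in FW and 67162, 60814, 99466 and 73964 CPM in SW (ENSSSAT00000082883, −0.22 ± 0.50, FDR = 1). A less abundant copy stood apart, with 1773 and 2630 CPM in FW and 521, 342, 822 and 696 CPM in SW (ENSSSAT00000133331, −1.89 ± 0.40, FDR = 0.103). At an unadjusted p under 0.05 it was the only ependymin, and DESeq2 called it. Ependymins together held 7.94 and 9.87% of TPM in FW and 5.68 to 9.03% in SW. Their near-identical sequences mean that reads may be split unevenly between copies.

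Of 11 coronet cell and SV markers, edgeR called 0 and DESeq2 called 1 lower, and 3 were lower at an unadjusted p under 0.05. The parvalbumin transcript ENSSSAT00000001133 measured 2616 and 3957 CPM in FW and 4777, 3037, 8906 and 4092 CPM in SW, where SPLL SW replicate 3 held the high value. nkx2.1, a transcription factor of the ventral hypothalamus, had a transcript at 90.8 and 96.7 CPM in FW and 62.8 to 84.7 CPM in SW (ENSSSAT00000186120, −0.38 ± 0.13, FDR = 0.289), and its more abundant transcript had a log2 fold change of −0.06 (ENSSSAT00000106880, FDR = 0.985). six3 and lhx8a, homeobox factors of the forebrain, had log2 fold changes of 0.05 and 0.02. 

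Blood content varied between libraries. The 15 erythrocyte markers, all globin transcripts and none at 0, held 5.82 and 2.79% of TPM in FW and 9.58, 5.88, 11.4 and 4.59% in SW. The means were 4.30 ± 2.14% (SD, n = 2) and 7.86 ± 3.16% (SD, n = 4), and the groups overlapped. The difference of 3.56 percentage points had an exact 2-sided permutation p of 0.267, where 4 libraries against 2 cannot give less than 0.133. No globin transcript passed the threshold, in edgeR or DESeq2, or had an unadjusted p under 0.05. Of the 15, 14 had a positive log2 fold change (23410 of all 46383 tested did). Their median was 0.82, or 0.23 without SPLL SW replicate 3. Leaving the erythrocyte markers out of the library sizes left the count of 125 as it was. The growth hormone gene gh1, a marker of the adjoining pituitary, ranged from 1.3 to 106 CPM in FW and from 6.54 to 277 CPM in SW. Neuron markers (0.109 and 0.112% of TPM in FW, 0.103 to 0.159% in SW) gave 0 edgeR calls of 12, with 1 at an unadjusted p under 0.05 and 1 in DESeq2. Glia and tanycyte markers (0.873 and 0.927% in FW, 0.836 to 1.25% in SW) gave 0 of 9, with 2 and 2. Other marker lists did have calls. Ciliated cell markers (0.0149 and 0.014% in FW, 0.015 to 0.0263% in SW) gave 2 edgeR calls of 6, higher in SW. The 1 dopaminergic marker, ppp1r1b, was called lower, and 1 of 2 endothelial markers, egfl7, higher (0.0798% and 0.190% of all tested). The part of blood, pituitary or other cells in the results above was not tested.

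**Figure D4:**
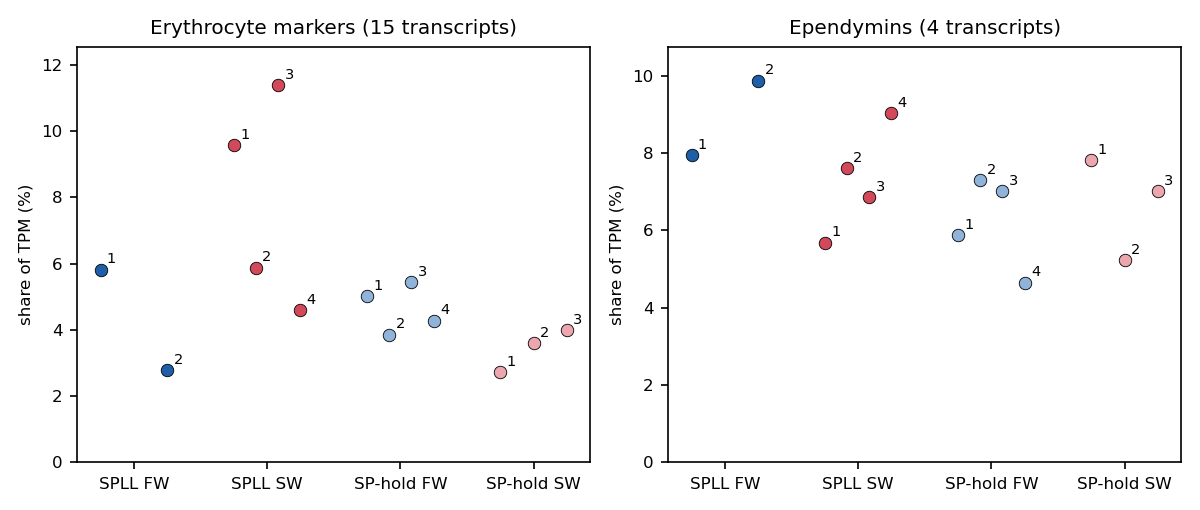
Percent of TPM in the 15 erythrocyte markers and the 4 ependymins in each of the 13 libraries by group. The erythrocyte share of the SPLL libraries runs from 2.79 to 11.4%, and the highest is SPLL SW replicate 3.

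Several pathways gave no call in edgeR. Endoplasmic reticulum translocon and chaperone transcripts had 0 of 31 past the threshold (2 at an unadjusted p under 0.05, none in DESeq2), and cytosolic chaperones and cold response transcripts 0 of 29 (7 at an unadjusted p under 0.05, 4 in DESeq2). Cirbp, a cold-inducible RNA-binding protein of the latter list, measured 487 and 476 CPM in FW and 275, 221, 418 and 227 CPM in SW, and was lower without SPLL SW replicate 3 (ENSSSAT00000184144, FDR = 0.0217). Thyroid hormone, deiodinase and opsin transcripts had 0 of 7 by every measure. Among genes of cholesterol supply, ldlra, the LDL receptor, had a transcript at 6.81 and 6.74 CPM in FW and 15.4, 19.2, 7.37 and 16 CPM in SW (ENSSSAT00000123885, FDR = 0.212). It passed without SPLL SW replicate 3, the library with the lowest SW value (FDR = 0.013). A second ldlra transcript, ENSSSAT00000018186, likewise passed in edgeR without that library (FDR = 0.0453).

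Leaving out SPLL SW replicate 3 added 36 named transcripts to the calls, 6 higher and 30 lower. Among chromatin regulators ncoa5, a nuclear receptor coactivator, had an FDR of 0.0423, and among ubiquitin ligases fbxo2 had 0.0366, both lower in SW. Of the neuropeptide and granule list, Ptprn2, a protein of secretory granules, was higher (FDR = 0.0341) and ccka, a cholecystokinin precursor, was lower (FDR = 0.0471). acta1b, an actin of muscle, was lower (FDR = 0.0125). The splicing members added were snrpb (FDR = 0.00785), rbm8a (0.0391), hnrnpk (0.0426), srsf2a (0.0442) and Cirbp, all lower. The ribosomal members added were RPS2 (ENSSSAT00000018919, FDR = 0.00918, and ENSSSAT00000009291, FDR = 0.0493), rpl15 (ENSSSAT00000090724, FDR = 0.0104, and ENSSSAT00000089837, FDR = 0.0384), rplp0 (FDR = 0.0222) and rps23 (FDR = 0.0468), all lower. For RPS2 ENSSSAT00000018919 the values were 873 and 863 CPM in FW and 191, 257, 888 and 215 CPM in SW, where replicate 3 alone lay at the FW level.

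Between SP-hold SW and SP-hold FW 39 transcripts differed (0.0841%), of which 6 were among the 125. In SP-hold fish the light changed as well, so photoperiod history and that change cannot be told apart in a difference between the responses. The SPLL and SP-hold comparisons share no libraries, and the difference between their responses was tested as an interaction. It passed for 105 transcripts (0.226%), and for 66 of the 125 and 21 of the 41 named calls. Of these 21, 14 rose in SPLL and had a positive difference, and 7 fell in SPLL and had a negative one. The sign of the difference thus followed the SPLL change on which they were selected. The SPLL response is also a term of the difference, so a share among the 125 above 0.226% follows in part from that selection. For hnrnpa1a the SP-hold libraries measured 122, 124, 131 and 108 CPM in FW and 77.5, 96.3 and 93.6 CPM in SW, a difference between the responses of 1.65 ± 0.16 (FDR = 0.00555). In SP-hold its SW libraries lay below its FW libraries, without passing on their own (FDR = 0.205).

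plak differed in the same manner with opposite sign. It measured 25.5, 25.8, 26.3 and 23.7 CPM in SP-hold FW and 31.5, 28.2 and 31 CPM in SP-hold SW, and the responses differed by −1.13 ± 0.13 (FDR = 0.00723). CKB measured 258, 218, 315 and 202 CPM in SP-hold FW and 370, 372 and 367 CPM in SP-hold SW (difference −1.75 ± 0.25, FDR = 0.028). pcmtd2a had overlapping SP-hold libraries, between 121 and 143 CPM, and differed by 0.99 ± 0.13 (FDR = 0.0159).

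For 20 named calls the test of the difference did not pass, which does not show that the responses were alike. egfl7 differed by 0.57 ± 0.12 (FDR = 0.11), gas8 by 1.27 ± 0.22 (FDR = 0.0532), tppp3 by −2.35 ± 0.43 (FDR = 0.066) and igfbp3 by −1.96 ± 0.53 (FDR = 0.192). si:ch73-141c7.1 was the only named call that also passed the threshold in SP-hold, with log2 fold changes of 1.58 in both and a difference of −0.00 ± 0.30 (FDR = 1). An fkbp5 transcript that did not pass in SPLL (ENSSSAT00000150909, named Fkbp5, 0.90 ± 0.46) had a log2 fold change of 4.90 in SP-hold, and the difference of −4.00 passed (FDR = 0.0292).

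**Figure D5:**
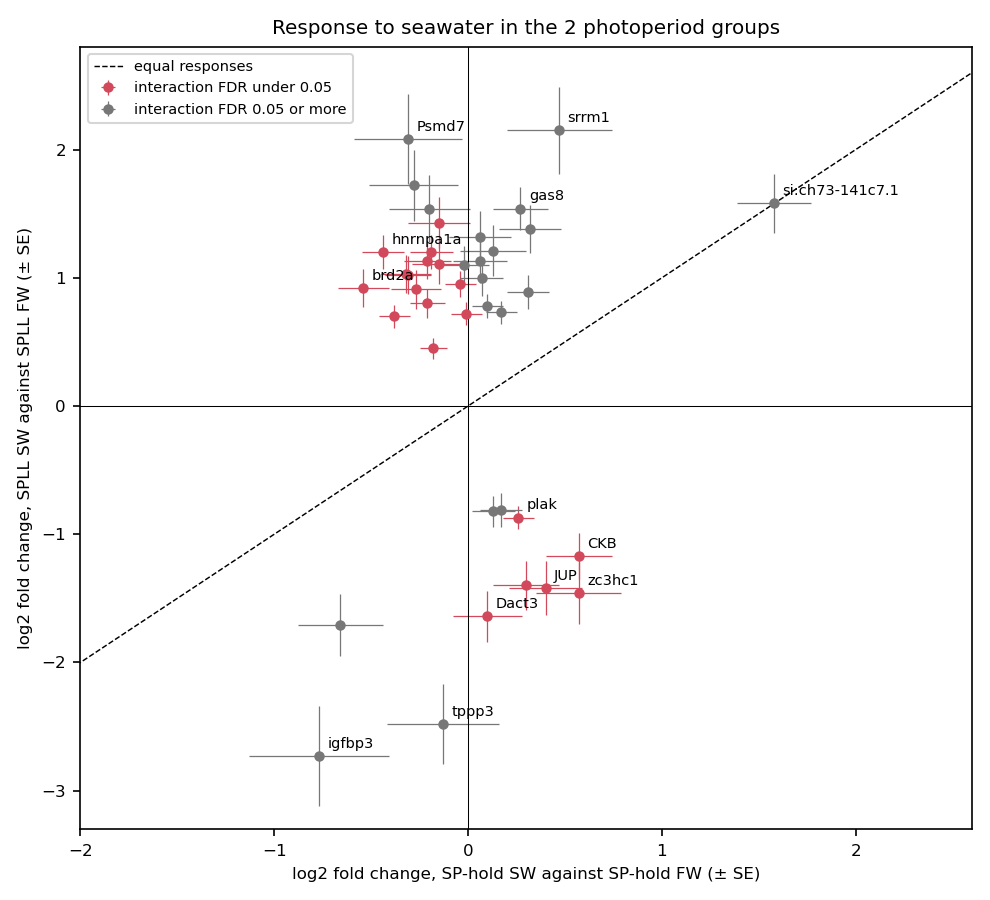
Log2 fold changes after SW transfer in SP-hold (horizontal) and SPLL (vertical) with their SE for 40 of the 41 named calls, with those past the interaction threshold in red. meis2b, at −6.70 in SPLL, is not drawn, and si:ch73-141c7.1 lies at 1.58 on both axes.

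The FW libraries set many of the rises apart from the rest of the series. For 80 of the 88 transcripts that rose, both SPLL FW libraries lay outside the range of the other 11 libraries, and for 20 all 4 SPLL SW libraries lay outside the range of the other 9. For the 37 that fell the counts were 14 and 30. Over all tested transcripts the shares were 5.70% and 2.23%. The called transcripts were selected on the difference between SPLL FW and SPLL SW, and these groups overlapped in none of them. Counts above the shares over all tested transcripts therefore follow in part from that selection. A trait of the SPLL FW libraries themselves and a response to transfer cannot be told apart in these counts. The values of chd2 show the first arrangement, with SP-hold libraries between 67.8 and 83.8 CPM, SPLL FW at 49.8 and 57.4 CPM and SPLL SW at 80.5 to 102 CPM. tppp3 shows the second, with SP-hold libraries between 10.9 and 27.1 CPM and SPLL SW at 4.3 to 6.09 CPM.

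Transcripts without a name made up 84 of the 125. Among them were 27 that rose from 0 reads in both SPLL FW libraries and 7 that fell to 0 reads in all 4 SPLL SW libraries, and none of these 34 carried a name. The lowest p among the unnamed rises belonged to ENSSSAT00000094621, with 0 and 0 reads in FW and 83, 108, 63 and 128 reads in SW, which was at least 27.5-fold higher against a floor of 3 reads in a library. ENSSSAT00000115860 was at least 56.5-fold higher on the same floor. ENSSSAT00000173586 had 120 and 105 reads in FW and none in SW, at least 34.1-fold lower, and ENSSSAT00000021410 was at least 6.76-fold lower.

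Absence in SPLL FW was not absence from the series. Of the 27, 24 had reads in all 7 SP-hold libraries, and all 7 of the falls did. Among all tested transcripts, 257 had 0 reads in both SPLL FW libraries and reads in all 4 SPLL SW libraries, and 58 had the reverse. The first pattern asks for zeros in 2 libraries and the reverse for zeros in 4, so the counts cannot be compared by direction. The same holds for the 27 and the 7. Without the 34 transcripts the median log2 fold change was 1.11 for 61 rises (0.45 to 3.41) and −1.44 for 30 falls (−6.70 to −0.59). With those 34 included, the rises were of longer transcripts, with a median length of 3980 bp against 2343 bp for the falls and 3228 bp for all tested. Fold changes also varied with length over all tested transcripts. Their median log2 fold change was −0.04 at lengths up to 2111 bp and 0.11 above 4950 bp.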

How the data were processed

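Estimated counts per transcript and TPM were deposited by the authors, who trimmed the single-end reads with Cutadapt and quantified them with Salmon 1.1.0 on the Ssal_v3.1 transcriptome. TPM was used for shares only. Estimated counts were rounded to whole reads and tested with edgeR 4.0.16 (R 4.3.3; glmQLFit and glmQLFTest, TMM, 4 group means, all 13 libraries). CPM was scaled with TMM factors. The filter on low values was a median CPM of 0.77 or more, a filter that no transcript with 0 reads in all 7 SW libraries can pass. FDR is Benjamini-Hochberg over all 46383 tests, with a threshold of 0.05. The fit was also run on simulated counts with equal spread in all groups and no deviant library, which cannot speak to SPLL SW replicate 3. Each SE was derived from the log2 fold change and its F statistic. With 2 libraries, SPLL FW was taken to vary like the other groups.

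Alternatives were DESeq2 1.42.0, RLE factors, other filters, the SPLL libraries alone, a replicate block, erythrocyte markers left out of library sizes, the newer quasi-likelihood method (chosen after seeing the data) and each library left out. Members and lists were chosen with earlier results of these data known. Text names the 12 named transcripts with the lowest p and the 5 with the largest change per direction (mean of at least 5 CPM). It also names list members past the threshold, up to 3 abundant members of some lists without a call, and at most 2 unnamed transcripts per direction. Genes that the study names are given only in part, and bhlhe40, huwe1, srebf2 and ptges2 are left out. Other transcripts in the text were chosen after their values were seen. Names and positions came from the study's tables, which name 1275 transcripts, 407 of them only by a zebrafish or mouse match. Promoter and protein sequences were not used here.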

Additional observations from a re-analysis of the deposited data

Results flagged for a closer look

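Values in groups of 4 libraries were compared with the nearest other library of the group, a rule that chance meets in about 1 in 20 groups. SPLL SW replicate 3 stood apart in its number of transcripts with reads (54196), in ENSSSAT00000100338 (3.28 CPM) and in ENSSSAT00000174387 (12.6 CPM). SPLL SW replicate 4 stood apart in enpp1 (13.5 CPM). Among SP-hold FW libraries, replicate 4 stood apart in chd2 (77.2 CPM) and igfbp3 (10.2 CPM), replicate 1 in JUP (6.52 CPM) and replicate 2 in tefb ENSSSAT00000115899 (5.21 CPM).

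The SW responses of SPLL and SP-hold differed in the edgeR interaction test for the following transcripts, given as the SPLL response minus the SP-hold response on the log2 scale. Transcripts called in SPLL were selected on the SPLL response, which is a term of this difference. Positive differences were found for pcmtd2a (0.99), hnrnpa1a (1.65), pwp1 (1.39), Vegfb (0.73), gpn2 (1.34), tardbpb (1.08), chd2 (1.00), Cr2 (1.57), TAFA3 (1.32), sdha (1.35), Cfap70 (1.26), brd2a (1.46), bzw2 (1.19) and Srsf11 (0.63). Negative differences were found for plak (−1.13), Dact3 (−1.75), si:dkey-5n18.1 ENSSSAT00000021713 (−1.70), JUP (−1.81), meis2b (−8.28), CKB (−1.75), zc3hc1 (−2.03), Fkbp5 ENSSSAT00000150909 (−4.00) and npnta (−1.57).

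Unnamed transcripts also differed. ENSSSAT00000118484 rose in SPLL and fell in SP-hold, with a difference of 3.00. Where a group was at 0 reads, only the edgeR FDR of the difference is given, 0.0049 for ENSSSAT00000094621, 0.00723 for ENSSSAT00000115860, 0.0049 for ENSSSAT00000173586, 0.00723 for ENSSSAT00000021410 and 0.00877 for ENSSSAT00000174387.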

How the results depend on the processing

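The SPLL count of 125 was 2287 with DESeq2, 78 with the newer quasi-likelihood method (chosen after seeing the data), 31 in the SPLL libraries alone and 31 with no filter. It stayed within 1.5 times with RLE factors (123), a median CPM of at least 5 (128) and erythrocyte markers left out of library sizes (125). The older quasi-likelihood method is the default of the edgeR version used, so it gives the reported values. Leaving out a library gave 84 to 511, with 305 without SPLL FW replicate 1, 219 without SPLL FW replicate 2 and 511 without SPLL SW replicate 3. The SP-hold count of 39 was 1369 with DESeq2 and 32 to 79 with a library left out (79 without SP-hold SW replicate 2, 62 without SP-hold FW replicate 1). The interaction count of 105 was 2092 with DESeq2, 24 with the newer method and 62 to 299 with a library left out. Outside 1.5 times were SPLL FW replicate 1 (299) and 2 (252), SPLL SW replicate 1 (62), 2 (159) and 3 (292) and SP-hold FW replicate 2 (66). The difference in erythrocyte share stayed between 2.04 and 5.07 percentage points. The cause of these differences was not tested, except that the fit to the SPLL libraries alone holds fewer libraries.

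Replicate numbers were not taken to pair the samples. Correlations of same-numbered libraries, as deviations from the group mean, ran from −0.0212 to 0.0894. With 2 libraries in SPLL FW the deviations mirror each other, so the check can show little there. The value of 0.0894, for replicate 1 of SP-hold FW and SP-hold SW, was the highest of all pairs compared. With a replicate block the counts were 1 in SPLL, 4 in SP-hold and 3 for the interaction. Of the 41 named calls, 41 remained with DESeq2, 40 with RLE factors, 34 with the newer method, 38 with a median CPM of at least 5, 6 with no filter, 1 in the SPLL libraries alone and 0 with the block. None reversed.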

Other observations

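A few transcripts were present in all libraries of one water and absent from all of the other, in SPLL and SP-hold alike. ENSSSAT00000163910 had 1422 to 4209 reads (65 to 195 CPM) in each of the 6 FW libraries and 0 reads in all 7 SW libraries. The filter on median CPM cannot keep such a transcript, and without a filter its edgeR FDR was 0.00726 in SPLL and 0.00663 in SP-hold. ENSSSAT00000199307 had 25 to 78 reads in FW and 0 in SW. In the other direction, ENSSSAT00000068644 had 0 reads in all 6 FW libraries and 67 to 259 in the 7 SW libraries, and ENSSSAT00000119024 had 0 and 21 to 158. Both were among the rises in SPLL and in SP-hold. In all, 4 transcripts had reads in every FW library and none in SW, and 4 had the reverse. They were chosen after their values were seen, none carries a name, and their cause was not tested.

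ENSSSAT00000174387 had opposite patterns in the photoperiod groups. It had 0 reads in both SPLL FW libraries and 113, 123, 234 and 134 in SPLL SW, against 24, 98, 161 and 84 in SP-hold FW and 0 in all 3 SP-hold SW libraries.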
